A study of Mus musculus with 2 samples.

Results

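The measurements describe 10 transcription factors of the T cell lineage, Tcf7, Lef1, Gata3, Bcl11b, Runx1, Runx3, Zbtb7b, Tox, Ikzf1 and Satb1, in the thymus of mice with and without a Pla2g10 transgene. Every probe that the array design names after 1 of these genes was taken, 18 probes among 41174, and 13 of them, from 8 of the 10 genes, were measured. A probe counts as measured if, for at least 1 genotype, the scanner software marked its signal as well above background on each array, which held for 12235 probes of 9397 genes in all. A further measured Bcl11b probe goes by an older name on the array and is reported beside the rest, outside the counts.

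Thymus RNA came from mice 6 months old on a C57BL/6 background. One group carried the transgene on 1 allele (Pla2g10-Tg/+), and the other was made up of control littermates; both ate a standard diet. RNA of 4 mice was pooled per genotype, 500 ng was labelled, and both pools were hybridised together on 2 two-colour arrays with the dyes exchanged. The labels give neither the promoter that drives the transgene nor whether the arrays hold separate pools, so each genotype counts as 1 sample. Whether the SD between arrays (n = 2) holds more than technical error is thus not known. No difference below has a replicate check across animals.

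These factors build T cell identity in the order of thymocyte maturation. Notch signals in early thymic progenitors switch on Tcf7 and Gata3; Bcl11b follows at commitment, when access to other blood lineages closes. Lef1, Runx1 and Ikzf1 act through the double-negative and double-positive stages, Satb1 organises chromatin in double-positive thymocytes, and Tox, Zbtb7b and Runx3 act when CD4 and CD8 cells part ways.

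Promoters of Bcl11b and Gata3 are shown because both genes read below 0 on both arrays and each has a single start in the RefSeq table of GRCm38.p6. Each run is the 250 bases before the start, on the gene's strand, at chr12:108003415-108003664 (minus) for Bcl11b and chr2:9878601-9878850 (minus) for Gata3. Capitals mark a match to the letters bound by TCF1 and LEF1, the products of Tcf7 and Lef1.
Bcl11b: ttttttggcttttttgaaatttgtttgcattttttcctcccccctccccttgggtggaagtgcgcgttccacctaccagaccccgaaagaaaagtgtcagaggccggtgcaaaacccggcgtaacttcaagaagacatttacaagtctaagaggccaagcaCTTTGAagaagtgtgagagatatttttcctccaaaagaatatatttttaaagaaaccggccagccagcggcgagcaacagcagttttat
Gata3: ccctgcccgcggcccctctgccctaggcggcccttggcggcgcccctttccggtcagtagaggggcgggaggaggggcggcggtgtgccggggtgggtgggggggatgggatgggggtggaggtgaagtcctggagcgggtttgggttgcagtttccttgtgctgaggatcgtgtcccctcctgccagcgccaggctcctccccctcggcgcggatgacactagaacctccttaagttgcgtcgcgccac

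Short motifs of 4 factor families were searched on both strands of these windows, and no matches overlapped. The letters CTTTGA, for TCF and LEF factors, occur in 13.8% of the 32851 promoter windows in the table. For the RUNX proteins, the products of Runx1 and Runx3, the letters TGTGGT were used and occur in 14.0%. For GATA factors the search used AGATAA, present in 9.99% of all windows. For Ikaros, the product of Ikzf1, it used TGGGAA, which 21.6% of the windows hold. The Bcl11b window holds 1 match for TCF and LEF factors, which begins at position -89, and none of the other motifs. The Gata3 window, with 70.0% G and C against a median of 52.4% over all windows, holds none. In Runx3 the window of the most upstream start is chr4:135120395-135120644 (plus strand). There the RUNX letters occur on the opposite strand at positions -134 and -126, and the Ikaros letters at -154. In the window of the most upstream Zbtb7b start the Ikaros letters begin at -196. These matches are letters in a window, not evidence of binding. In all, 9 of the 10 genes have an entry, with 21 windows between them; Tox has none. Of the 21 windows, 2 hold the TCF and LEF letters (Bcl11b and Lef1), 2 the RUNX letters (Runx3 and Zbtb7b), 0 the GATA letters and 3 the Ikaros letters (Runx3, Satb1 and Zbtb7b).

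Across the 10 factors the differences between genotypes were small. Of the 13 measured probes, 0 reached a log2 ratio of 0.25 in size with 1 sign on both arrays, in either direction. Among all measured probes, 1.6% did so upward and 1.21% downward, so that on 13 probes a count of 0 is near the background. With the scanner software's processed signals centred on the median in place of normexp and loess, 2 member probes passed, Bcl11b A_51_P171772 (-0.31 and -0.48 on arrays 1 and 2) and Tcf7 A_52_P244711 (-0.42 and -0.29). Under that setting 2.5% of all measured probes passed upward and 2.87% downward. Without the centring, 0 members passed. On sign alone, 3 member probes lay above 0 on both arrays, against 27.5% of all measured probes, and 5 lay below, against 29.4%. These counts depend on the normalization. Median centring in place of loess left 0 above and 1 below, against 2.27% and 5.62% of all measured probes, and the centred software signals left 0 and 3, against 9.79% and 12.1%. A 2-fold difference, set at a mean log2 ratio of 1 with 0.5 on each array, was reached by 0 members and by 0.0327% of measured probes.

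Taking the brightest measured probe of each gene, Ikzf1, Lef1 and Tox lay above 0 on both arrays and Bcl11b, Gata3, Runx1 and Tcf7 below, with Satb1 split. The shares of all genes were 28.3% above and 29.1% below on both arrays, and 1.68% and 1.31% past 0.25 upward and downward. The median of the 8 factors was -0.04, with 5 below 0, beside -0.002 and 50.7% below 0 for all 9397 genes. Their medians on arrays 1 and 2 were -0.03 and -0.04.

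**Figure D1:**
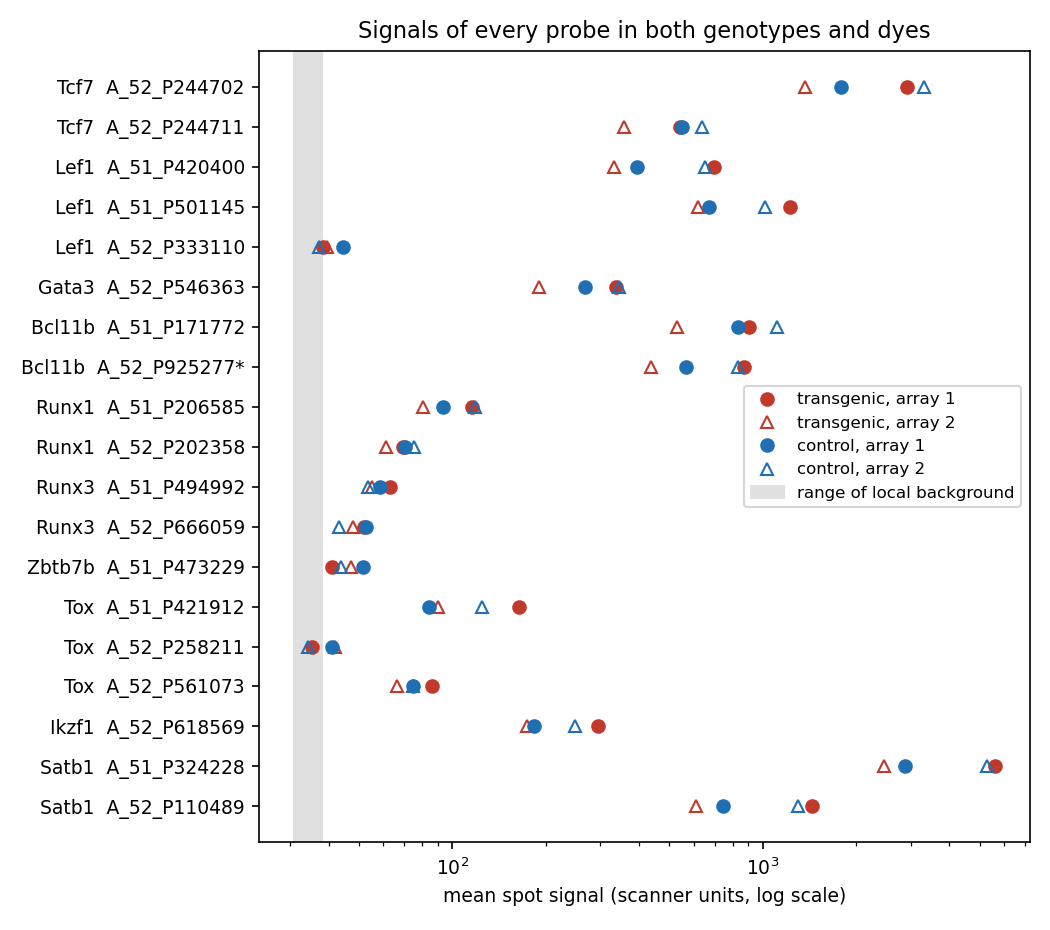
Mean spot signal in scanner units (log axis) of all 18 probes and the further Bcl11b probe (asterisk) in the transgenic (red) and control (blue) channel of array 1 (filled circles) and array 2 (open triangles); the grey band is the range of local background at these spots. In the measured probes nearly every red-dye signal, which is transgenic on array 1 and control on array 2, is the brighter one, and the 5 probes of Runx3, Zbtb7b, Lef1 and Tox that were not measured lie between 34.2 and 63.2.

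Raw signals have to be read with the dye in mind. Transgenic RNA carried the red dye on array 1 and the green dye on array 2, and red was the brighter channel at most member probes. Each log2 ratio below is transgenic over control after loess normalization, which removes the dye bias that depends on intensity. The ratios carry an offset of 50 in each channel and are therefore shrunken where signals are low. Signals of different probes were not compared, since probes differ in affinity.

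Tcf7, which encodes TCF1, the first T-lineage factor that Notch induces, was read by 2 probes. Probe A_52_P244702 (mm8 chr11:52096035-52096094, minus strand) gave transgenic signals of 2911 and 1368 and control signals of 1790 and 3306 on arrays 1 and 2. Its log2 ratios were -0.22 and -0.22, a mean of -0.22 ± 0.004, which is a ratio of 0.859. Among the measured member probes this was the smallest SD between arrays after loess, and both values were below 0. With the centred software signals the ratios were 0.18 and -0.62, and without the centring they were -0.18 and -0.29. The other probe, A_52_P244711 (chr11:52096752-52096811), read 542 and 356 in the transgenic channels and 550 and 639 in the control channels. Its log2 ratios were -0.71 on array 1 and 0.01 on array 2, a mean of -0.35 ± 0.51. Only array 1 showed a lower transgenic value, so the larger mean of this probe rests on that array.

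Lef1 encodes the partner of TCF1 in the same family, which binds the same DNA letters. Probe A_51_P501145 (chr3:131213273-131213332, plus strand) read 1229 and 617 in the transgenic and 670 and 1021 in the control channels. Its log2 ratios were 0.09 and 0.20, a mean of 0.15 ± 0.07, above 0 on both arrays. Probe A_51_P420400, whose ends lie at chr3:131194088-131212249, read 697 and 333 against 393 and 654. Its ratios were 0.12 and -0.11, and their mean of 0.01 ± 0.16 has no direction. Another probe (A_52_P333110) stayed at background in all 4 channels, with signals of 37.2 to 44.4. In neither measured Lef1 probe did the mean lie below 0, as it did in both of Tcf7; whether the genes differ was not tested.

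Gata3, needed for early T cell specification and later for the CD4 lineage, had 1 probe, A_52_P546363 (chr2:9775209-9775268, minus strand). Transgenic signals were 336 and 190.5 and control signals 268 and 345 on arrays 1 and 2. The log2 ratios were -0.26 and -0.11, with a mean of -0.18 ± 0.11. Both arrays read below 0, and only array 1 passed 0.25 in size.

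Bcl11b, the commitment factor, had the lowest mean of all member probes. Its probe A_51_P171772 (chr12:108363444-108363503, minus strand) read 901 and 530 in the transgenic channels and 834 and 1113 in the control channels. The log2 ratios were -0.66 and -0.15, a mean of -0.40 ± 0.36. Both were below 0, but the array 1 value was the larger by far. The probe under the array name 9130430L19Rik, a synonym of Bcl11b in the RefSeq table (A_52_P925277, chr12:108358529-108358588), read 871 and 437.5 against 564.5 and 834. Its ratios were -0.12 and -0.04, a mean of -0.08 ± 0.06. All 4 Bcl11b ratios were thus below 0, and 1 of them passed 0.25 in size.

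Runx1, a DNA-binding partner of Cbfb that silences Cd4 in immature thymocytes, was dim. Probe A_51_P206585 (chr16:92493027-92493086, minus strand) read 115.5 and 80.6 in the transgenic and 93.4 and 119 in the control channels, with log2 ratios of -0.01 and -0.15. Probe A_52_P202358, with ends at chr16:92502617-92533069, read 69.5 and 61.3 against 70.2 and 75.3, with ratios of -0.12 and -0.02. The means were -0.08 ± 0.10 and -0.07 ± 0.07. The probes gave nearly the same small value below 0, no larger than their spread between arrays.

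Runx3, which acts in CD8 cells, and Zbtb7b, which encodes the CD4 lineage factor ThPOK, were not measurable in whole thymus. The Runx3 probe A_51_P494992 (chr4:134448120-134448179, plus strand) read 63.2 and 55.0 in the transgenic and 58.5 and 53.6 in the control channels. It was well above background only in the transgenic channel of array 1. Its other probe (A_52_P666059) and the Zbtb7b probe (A_51_P473229, chr3:89465235-89465294, minus strand) were above background in 0 of 4 channels. The Zbtb7b signals were 41.0 and 47.1 against 51.4 and 43.9. No direction is drawn for either gene.

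Tox, a chromatin-binding factor needed for CD4 lineage development, had the highest mean of the members in 1 probe and almost none in another. Probe A_51_P421912 (chr4:6615142-6615201, minus strand) read 164 and 90.1 in the transgenic channels and 84.4 and 124 in the control channels. The log2 ratios were 0.53 and 0.03, with a mean of 0.28 ± 0.35. Nearly all of that mean came from array 1. Probe A_52_P561073, close by at chr4:6615449-6615508, read 85.9 and 66.1 against 74.5 and 74.8. Its ratios were -0.005 and 0.04, a mean of 0.02 ± 0.03. Another probe (A_52_P258211) stayed at background, with signals of 34.2 to 41.9.

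Ikzf1 encodes Ikaros, which restrains Notch target genes in thymocytes. Its probe A_52_P618569 has ends at chr11:11658319-11661278 (plus strand), 2960 bases apart on the genome. Signals were 295 and 174 in the transgenic and 183 and 248 in the control channels. The log2 ratios were 0.12 and 0.19, a mean of 0.15 ± 0.05, above 0 on both arrays and below 0.25 on each.

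Satb1, a genome organiser abundant in double-positive thymocytes, was read by 2 bright probes. Probe A_51_P324228 (chr17:51204741-51204800, minus strand) read 5598 and 2459 in the transgenic and 2868 and 5268 in the control channels. Its log2 ratios were -0.05 and 0.02, a mean of -0.01 ± 0.05. Probe A_52_P110489 (chr17:51272068-51272127) read 1448 and 611 against 745 and 1296, with ratios of 0.15 and -0.14 and a mean of 0.01 ± 0.21. At both probes the sign differed between the arrays and the mean lay within the spread.

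**Figure D2:**
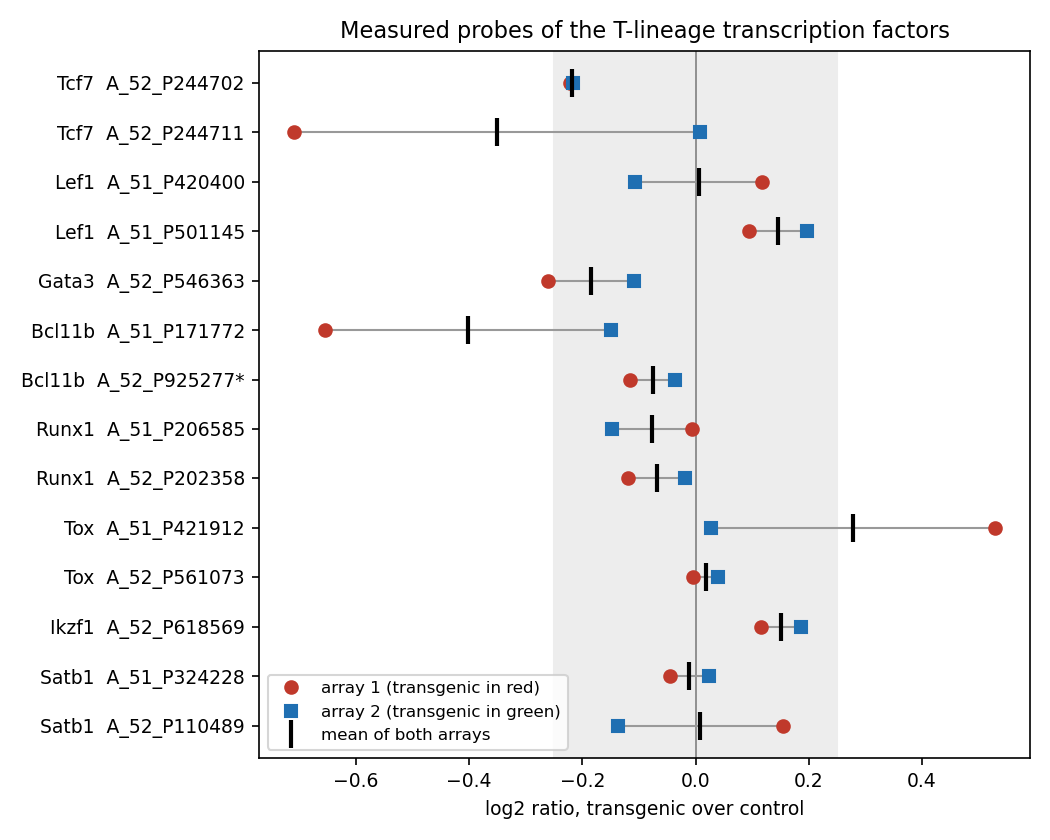
Log2 ratio of transgenic over control for each measured probe on array 1 (circles) and array 2 (squares), with the mean of both (black bars); the grey band spans -0.25 to 0.25 and the asterisk marks the Bcl11b probe under its older name. Values outside the band occur on array 1 alone, at probes of Tcf7, Gata3, Bcl11b and Tox.

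With the arrays taken as separate measurements in limma, the adjusted p over 12235 probes ranged from 0.104, for Bcl11b probe A_51_P171772, to 0.991. This fit covers the spread between arrays and is no test across animals. In it 103 probes of the whole array were higher and 51 lower at an adjusted p under 0.05. None of the 13 members was among them. At an unadjusted p under 0.05, limma took 767 of the 12235 probes upward and 660 downward. Both Tcf7 probes, Bcl11b A_51_P171772 and Tox A_51_P421912 were among these. Since limma shares variance across probes, values that differ between the arrays can still pass. Tcf7 A_52_P244711 read -0.71 and 0.01 on arrays 1 and 2, and Tox A_51_P421912 read 0.53 and 0.03.

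Probes of 1 gene disagreed most in Tcf7, Bcl11b and Tox, and they did so on array 1. There the 2 probes differed by 0.49, 0.54 and 0.53 log2 units in these genes, and on array 2 by 0.22, 0.11 and 0.01. Over 1828 genes with 2 measured probes the median difference was 0.12 on array 1 and 0.10 on array 2. In the mean of both arrays, the Bcl11b probes lay 0.33 apart, more than in 97.1% of those genes, and the Tox probes 0.26 apart, more than in 94.8%. The Bcl11b pair includes the probe named by synonym.

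The probe pairs of Lef1 (0.14), Tcf7 (0.13), Satb1 (0.02) and Runx1 (0.01) were closer in their means. Satb1 was the only one of the 6 genes whose probe means had opposite signs, as they did in 33.4% of the 1828 genes. Lef1 was the reverse of the Bcl11b case, with a difference of 0.02 on array 1 and 0.30 on array 2.

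**Figure D3:**
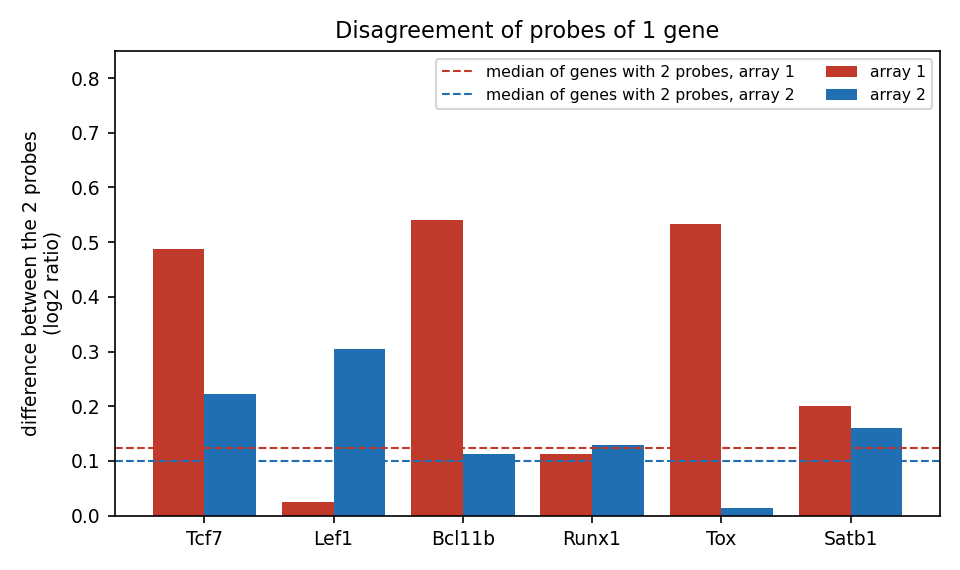
Absolute difference between the log2 ratios of the 2 measured probes of each gene on array 1 (red bars) and array 2 (blue bars); dashed lines are the medians over 1828 genes with 2 measured probes, 0.12 and 0.10. Tcf7, Bcl11b and Tox stand near 0.5 on array 1, and only Lef1 is above 0.3 on array 2.

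The dye contrast is (array 1 minus array 2) divided by 2, in which a genotype difference cancels if both arrays hold the same pools. The labels do not state this. The dye contrast was large at the same 3 probes, which follows from their gap between the arrays. Its size at Tcf7 A_52_P244711 exceeded that of 99.55% of measured probes, at Bcl11b A_51_P171772 that of 97.88% and at Tox A_51_P421912 that of 97.77%. The scanner software's own p for the log ratio within 1 array was 2.77e-04 and 0.842 on arrays 1 and 2 for the Tcf7 probe. It was 0.00151 and 0.446 for the Bcl11b probe, and 6.7e-05 and 0.819 for the Tox probe. None of these spots was saturated or marked as an outlier. The median log2 ratio of spots well above background in the surrounding 5 rows and columns lay between -0.04 and 0.06 at all 3, so their neighbours did not share the shift. The Tcf7 and Bcl11b spots sit in row 119 of the array, at columns 94 and 30, and the Tox spot in row 23. What separates array 1 from array 2 at these spots was not tested.

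Array 1 was also the wider array over all measured probes, with an SD of log2 ratios of 0.19 against 0.15 on array 2. Across the measured probes the turned arrays had a Pearson r of 0.29 and a Spearman rho of 0.22; probes are not independent replicates. The median SD between arrays was 0.09, and 18 probes printed 10 times each had a median SD between spots of 0.06 on array 1 and 0.05 on array 2. The dye contrast passed 0.25 on each array, with the sign of a dye effect, at 0.556% of measured probes and at 0 members. The means of Tcf7 A_52_P244702, Gata3, Lef1 A_51_P501145, Ikzf1 and both Bcl11b probes were each larger in size than their own SD between arrays, those of the other measured member probes smaller.

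**Figure D4:**
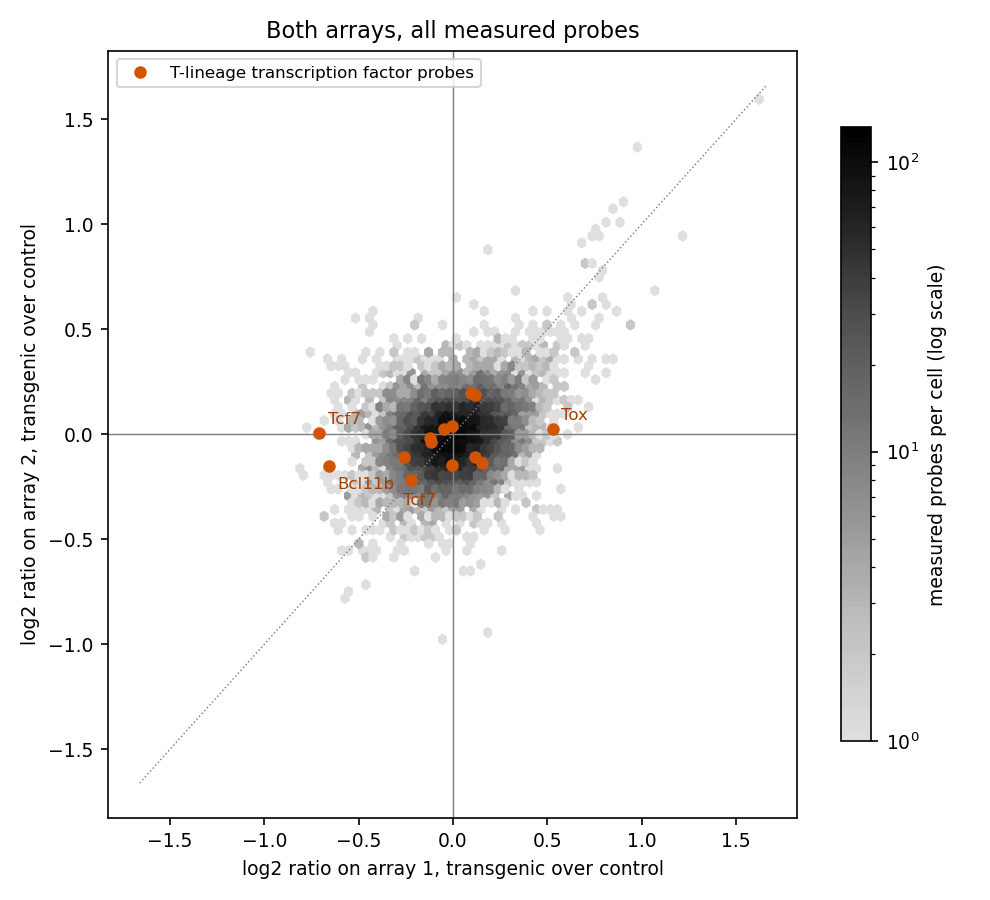
Log2 ratio of transgenic over control on array 1 (x axis) against array 2 (y axis) for 12235 measured probes, as shaded cells with the number of probes on a log scale, and for the member probes (orange), including the Bcl11b probe named by synonym; the dotted line marks equal values. One probe each of Tcf7, Bcl11b and Tox lies far out along the axis of array 1 and near 0 on that of array 2.

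Among the partners and relatives of the 10 factors, 1 gene passed 0.25 on both arrays. Of all genes, 1.68% did so upward and 1.31% downward. Of 26 listed genes, 15 were measured, 13 of them with a mean below 0, against 50.7% of all genes. On both arrays 8 lay below 0 and none above, against 29.1% and 28.3% of all genes. The median of the 15 was -0.12, against -0.002 for all genes, and -0.03 over 25 genes without the filter on dim probes. The gene past 0.25 was lower, Zfpm1 (-0.29 ± 0.05), which encodes the GATA cofactor FOG1, and 0 were higher. Cbfb, the shared partner of the RUNX proteins, had a mean of -0.13 ± 0.16, and Ikzf3, a relative of Ikaros, -0.23 ± 0.04. Ctnnb1, which encodes the beta-catenin that TCF1 and LEF1 bind, read 0.25 on array 1 and -0.27 on array 2.

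Among 35 other transcription factors of T cell development, 28 were measured. Past 0.25 on both arrays, 6 were lower and 0 higher, against 1.31% and 1.68% of all genes. The median was -0.06, with 18 below 0 and 10 above; it was -0.11 with median centring and -0.16 on array 2 alone. Ets2, of the ETS family, read -0.53 ± 0.15. Id3, an inhibitor of E proteins, read -0.41 ± 0.18, the repressor gene Gfi1 -0.33 ± 0.07 and Egr2, a target of T cell receptor signals, -0.31 ± 0.0002. Klf2, counted among the 6 lower, read -0.54 ± 0.20 by its brightest probe and 0.59 by its other, so its direction is unsettled.

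Factors that T lineage commitment shuts off, such as Spi1, Cebpa and Tal1, were mostly unmeasured. Of 14 listed, Lyl1 alone was measured, with 0.10 ± 0.01.

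Several T cell genes that the literature places under these factors differed past 0.25 on both arrays. Of 23 listed, 20 were measured, with 6 lower and 1 higher by that rule, against 1.31% and 1.68% of all genes. The median was -0.20, with 16 below 0 and 4 above. Axin2, among those below 0, was well above background in 2 of 4 channels and so entered through 1 genotype alone. Over the 18 genes seen in all 4 channels the median was -0.22. The chemokine receptor gene Ccr9 read -0.53 ± 0.10, the coreceptor gene Cd8a -0.51 ± 0.0007, Dntt, which adds bases at receptor joints, -0.42 ± 0.20, Thy1 -0.34 ± 0.09 and the recombinase gene Rag1 -0.31 ± 0.04. Ccr7, which guides mature T cells, was the gene above, at 0.45 ± 0.15. Whether the list differs from the 10 factors was not tested.

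**Figure D5:**
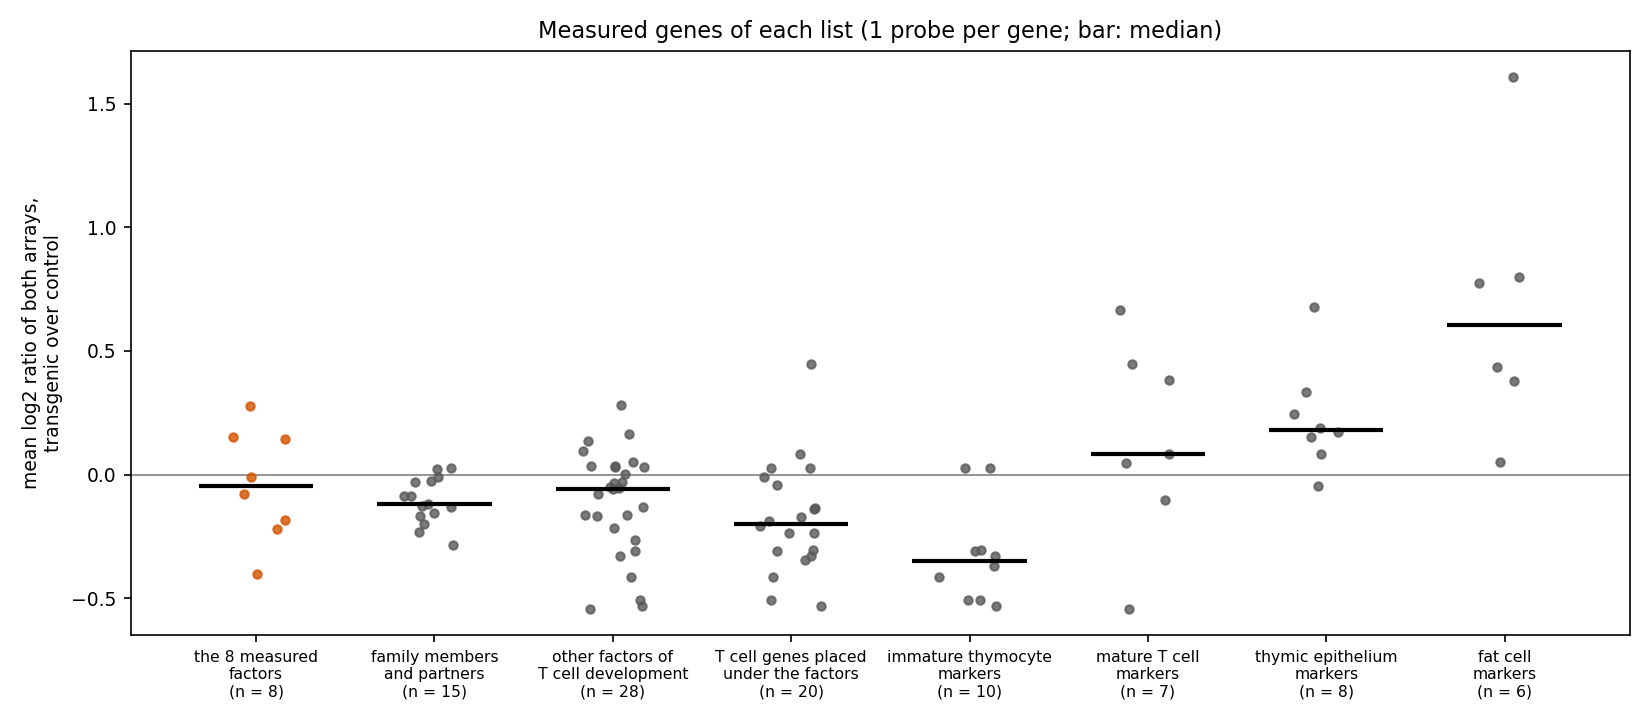
Mean log2 ratio of both arrays, transgenic over control, for the measured genes of each list (points, 1 probe per gene) with the list's median (bars). The 8 factors spread around -0.04, the immature thymocyte markers lie mostly below 0 and the fat cell markers above. Of the 6 fat cell markers, 3 entered through the transgenic pool, where they are high.

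Markers of immature thymocytes were lower alongside these values. Of 11 markers, 10 were measured, 8 lay below 0 and 7 were lower past 0.25, with a median of -0.35. Past 0.25 on both arrays, 1.31% of all genes were lower and 1.68% higher. Counts past 0.25 in this list and the others depend on the normalization. With median centring in place of loess, only 4 of all 9397 genes were lower by that rule and 14 higher. Arpp21 counted as lower by its brightest probe (-0.37), while the highest of its 3 probes read 0.45. By their brightest probes, Cd4 (0.02) and Cd1d1 (0.03) lay above 0. The list shares 8 of its genes with the T cell genes above and 1 with the other factors, so the lists are not independent. Summed over the list, signal above background was 32285 and 12999.8 in the transgenic pool and 19925 and 38464 in the control pool on arrays 1 and 2. The sums were not normalized, and only the geometric mean of the within-array ratios, in which dye and array brightness cancel, was read: it was 0.74. Rag2 was dim in all 4 channels. Mature T cell markers (7 of 8 measured) had a median of 0.08, with 3 higher and 1 lower past 0.25. The lower gene was Klf2 by its brightest probe, while its other probe read 0.59. The ratio of sums of the mature T cell markers was 0.791 (6724 and 2836 transgenic, 4540 and 6718 control). The median and the sum of this list thus lay on opposite sides of no difference.

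Fat cell markers were higher past 0.25 in 5 of the 6 genes measured among 10 listed, against 1.68% of all genes, with a median of 0.61. Cfd, Cidec and Car3 were well above background in 2 of 4 channels and entered through the transgenic pool, where they are high; the 3 genes seen in all channels, Fabp4, Lpl and Pparg, read 0.78, 0.38 and 0.05. The ratio of summed signals was 1.86 (2001 and 988 transgenic, 623 and 917 control). That sum covers all 6 genes, so it holds the 3 that entered through the transgenic pool. Over the 3 genes seen in all channels the median was 0.38. Plin1, Retn and Lep were dim throughout. Of 8 measured thymic epithelium markers among 9 listed, 1, Krt5, was higher past 0.25 and 7 had a mean above 0, with a median of 0.18. Their ratio of sums was 1.08 (14054 and 6057 transgenic, 6599 and 11108 control), and Foxn1 was dim. The medians were 0.85 for red cells (3 of 7 measured), 0.34 for neutrophils (5 of 8), 0.12 for fibroblasts (5 of 6) and -0.01 for macrophages and monocytes (8 of 10). They were 0.23 for B cells (2 of 8), 0.07 for natural killer cells (3 of 6) and 0.04 for endothelium (1 of 5). The B cell genes Cd79a, Ms4a1 and Pax5 and the natural killer gene Ncr1 were dim in all channels. In these whole-tissue pools, fewer cells of a type and less RNA per cell cannot be told apart. The part that composition has in the values of the 10 factors was not tested.

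The probe for Pla2g10 itself was well above background in 0 of 4 channels, with signals of 35.2 and 43.0 in the transgenic and 45.1 and 39.5 in the control channels. It gives no check of the genotype labels, since the sequence the transgene transcribes is not stated in them. The share of transcript spots marked well above background was 34.1% and 28.5% for the transgenic pool on arrays 1 and 2, and 29.0% and 33.2% for the control pool.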

How the data were processed

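The deposited scanner files give, per the file headers, mean and local background intensity of each spot and channel on a linear scale, a processed intensity, and the software's p-value for the log ratio at each spot, from Feature Extraction 9.5.1.1. The deposited series table holds log10 red over green processed signal, neither turned nor centred (medians -0.113 and -0.101). Mean signals were corrected with normexp (offset 50) and normalized by loess within arrays, with control and outlier spots at weight 0 (limma 3.58.1, R 4.3.3). Array 2 was multiplied by -1, and spots of a probe were averaged. No test across animals was possible, and limma was run over arrays only. Probe positions are on mm8, per the file headers; exons and UTRs are not given, for want of an mm8 annotation here. Gene names and promoters came from RefSeq (GRCm38.p6). The steps were tested on simulated arrays. That test required the right sign only at simulated differences of 2-fold or more, which are larger than the means of the member probes.

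The 10 members, the gene lists and the rules were chosen with earlier results of these data known. All probes of the members are named, and from each list the genes past 0.25 on both arrays, at most 6 by size, or its extremes where there are none; Cbfb, Ikzf3 and Ctnnb1 were added after their values were seen. Some genes that this rule takes are left out of the text. Alternatives changed the offset, the background correction, the loess, the filter on dim probes, the outlier spots, the array and the probe that stands for a gene. Subtracting the neighbourhood median, leaving the software's ratios uncentred and counting the Bcl11b synonym probe were added after seeing the data.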

Additional observations from a re-analysis of the deposited data

How the results depend on the processing

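The count of member probes past 0.25 on both arrays stayed at 0 except in these cases. It was 2 with the software's signals, or the series table, centred on the median, and 0 to 4 on single arrays, where array 1 gave the 4. Of all 12235 measured probes, 1049 were higher and 917 lower past 0.25 on array 1, and 513 and 603 on array 2. The mean of Bcl11b A_51_P171772, Gata3, Ikzf1, Tox A_51_P421912, Tcf7 A_52_P244702, Lef1 A_51_P501145 and both Runx1 probes kept its sign with the other offset, background correction, normalization, software and neighbourhood settings and on single arrays. Both Satb1 probes, Lef1 A_51_P420400, Tcf7 A_52_P244711 and Tox A_52_P561073 changed sign under at least 1 of these. A dye bias cancels in the mean of both arrays, so a kept sign does not show that the arrays agree. With median centring, the probes that kept their sign were above 0 on array 1 and below 0 on array 2. Gata3 then read 0.27 and -0.75, and Ikzf1 0.61 and -0.41.

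Median centring in place of loess left 1 member probe below 0 and 0 above 0 on both arrays; the centred software signals and the series table left 3 and 0. Single arrays gave 7 to 8 below and 5 to 6 above, and no filter on dim probes gave 6 above. The median of the member genes was -0.0753 with an offset of 0, -0.0808 with median centring, -0.0581 with centred software signals or the series table, -0.0752 with uncentred ones and -0.0567 with the neighbourhood median subtracted, and -0.0426 to -0.0261 on single arrays. The median of partners and relatives was -0.164 with median centring, -0.149 with centred software signals or the series table, -0.166 uncentred, -0.0842 after the neighbourhood and -0.0299 without a filter, and -0.168 to -0.123 on single arrays. The other factors' median was -0.111 with median centring, -0.0864 with an offset of 0, -0.0896 with uncentred software signals and -0.0329 without a filter, and -0.157 to -0.0569 on single arrays. Past 0.25 on both arrays, genes higher and lower numbered 547 and 390 with an offset of 0, 14 and 4 with median centring, and 654 and 477 with uncentred software signals. Genes lower numbered 219 with centred software signals or the series table, and single arrays gave 404 to 862 higher and 483 to 676 lower. The cause of these changes was not tested.

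No paired analysis was possible because each genotype counts as 1 sample. Signals near background limit Runx3, Zbtb7b, Runx1 and Tox most, where an offset of 50 shrinks ratios: Tox A_51_P421912 read 0.47 and Runx1 A_52_P202358 -0.18 with an offset of 0. Differences between animals cannot be judged, since each genotype counts as 1 sample.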
